A study of Mus musculus with 10 samples.

Results

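The 46 genes described here encode the heat shock proteins and their partners, the chaperones and degradation factors of the endoplasmic reticulum (ER), and the transcription factors and targets of the unfolded protein response. They were listed by name, with earlier results of these data known. A probe was found for 45 of them, through 59 probes of which 58 passed a filter on low signal, and all 45 genes were among the 22016 genes and unnamed transcripts tested. Hspa1b, a copy of Hspa1a that is almost identical in sequence, had no probe of its own, so a value of Hspa1a may hold signal of both.

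Heat shock proteins bind unfolded proteins in the cytosol, and their genes are switched on by heat shock factor 1 when unfolded proteins accumulate. The ER holds a separate set of chaperones for secreted and membrane proteins, which is raised by 3 sensors of unfolded protein, ATF6, IRE1 with its target Xbp1, and PERK with its target Atf4. Heart muscle is rich in small heat shock proteins that bind the sarcomere, and prolonged ER stress can end in the induction of Ddit3, which encodes CHOP.

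Ventricle RNA came from male mice left without treatment or given aldosterone, a salt-retaining hormone of the adrenal cortex that binds the mineralocorticoid receptor, with a duration of 7 days on the label of both groups. Each group held 5 hearts, each labelled as a separate mouse. Both groups carry the name Ctrl in the titles, and strain, age, dose and route are not given in the sources used here. Each heart was labelled with Cy5 and set against 1 pooled reference of liver, brain, heart, kidney and spleen RNA in Cy3. A value is therefore the log2 ratio of a heart to that pool, where 1 unit is a factor of 2, and values of different genes cannot be ranked by abundance.

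Scanner files of 5 control and 4 aldosterone hearts were used for the tests, and aldosterone heart 4 was known through the deposited value table alone. Cy5 signal well above background was measured on 25349 to 27955 of 39429 probes of an array. The hearts stood apart across both groups: along the first principal component of all genes other than the members (32.8% of the variance), controls 3, 4 and 1 and aldosterone hearts 3 and 5 had scores of 22.7, 5.83, 5.57, 13.1 and 13.3, and controls 2 and 5 and aldosterone hearts 1 and 2 had scores of -19.3, -14.2, -15.1 and -11.8. Controls lay at positions 1 or 4 of a slide and aldosterone hearts at position 2, and the groups cannot be told apart from these positions. All 8 cardiomyocyte markers looked for, among them Myh6 and Tnnt2, passed the signal filter. RNA came from whole ventricle, in which a change in the share of a cell type and a change of RNA per cell cannot be told apart.

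Promoter sequences are shown first, searched for known elements of the heat shock and ER stress responses. RefSeq promoters of the GRCm38.p6 assembly, 250 bases before to 50 after a start, were found for 39 of the 46 genes and not for Atf6, Cryab, Hsp90aa1, Hsp90ab1, Hspa8, Hyou1 and Manf. The heat shock element was searched on both strands as 3 triplets that alternate GAA with TTC, with 2 bases of any kind between them. It was present in 4 members and in 0.603% of all 32851 promoters. By role it was in 2 of 15 cytosolic members, 0 of 16 ER members and 2 of 2 mitochondrial genes. Hsph1 and Chordc1 had it at or after the start. Hspd1 and Hspe1, which encode the mitochondrial chaperonin and lie head to head, share 1 element between them at chr1:55088047-55088088, shown on the strand of each gene with the joined matches in capitals.
Hspd1: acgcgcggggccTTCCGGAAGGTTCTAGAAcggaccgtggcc
Hspe1: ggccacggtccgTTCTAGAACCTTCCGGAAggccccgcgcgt

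The ER stress element was searched on both strands as CCAAT, 9 bases of any kind, then CCACG. It was present in 8 of 16 ER members with a promoter (Hspa5, Hsp90b1, Pdia6, Calr, Canx, Creld2, Dnajc3 and Syvn1), in 0 of 15 cytosolic members and in 0.119% of all promoters. The promoter of Hsp90b1 held 2 copies. The copies of Hspa5, Hsp90b1, Pdia6 and Syvn1 are printed with the element in capitals, at chr2:34772013-34772055 on the plus strand for Hspa5, chr10:86705626-86705668 and chr10:86705521-86705563 on the minus strand for Hsp90b1, chr12:17266479-17266521 on the plus strand for Pdia6 and chr19:6046520-6046562 on the plus strand for Syvn1.
Hspa5: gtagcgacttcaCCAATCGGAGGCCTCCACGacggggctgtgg
Hsp90b1, first: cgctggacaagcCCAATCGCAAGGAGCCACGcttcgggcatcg
Hsp90b1, second: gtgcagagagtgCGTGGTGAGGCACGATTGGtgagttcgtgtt
Pdia6: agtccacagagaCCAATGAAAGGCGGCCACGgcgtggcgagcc
Syvn1: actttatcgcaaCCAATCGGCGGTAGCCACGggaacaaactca

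The core CCACG, which lies inside the ER stress element, was in 15 of 16 ER members, 7 of 15 cytosolic members and 32.8% of all promoters. The C/EBP-ATF element TGATGNAA, to which ATF4 and CHOP with their partners can bind, was in Asns, Chac1, Trib3 and Herpud1 and in 3.97% of all promoters. The element TGACGTGG was in 0 of 39 members and 0.676% of all promoters. The copies upstream of Chac1 (chr2:119351037-119351068, plus strand) and Asns (chr6:7693213-7693244, minus strand) are shown for the comparison of the targets of ATF4 and CHOP. A match is a description of the letters and was not tested as a binding site. A share of all promoters counts promoters, and a count of members counts genes with the match in any of their promoters.
Chac1: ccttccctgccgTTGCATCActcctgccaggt
Asns: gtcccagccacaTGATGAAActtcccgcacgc

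Over the whole set, no member passed the test of aldosterone against control. With limma, an adjusted p under 0.05 was reached by 0 of 45 members and 0 of 22016 genes (0%). An unadjusted p under 0.05 was reached by 1 of 45 members, Dnajb11, against 6.19% of all genes. With aldosterone, 21 members were higher and 24 lower by any size, against 52.3% of all genes higher. In the value table of 10 hearts, where 37 genes or 0.168% passed, 0 members passed, 18 were higher and 27 lower, against 49.9% of all genes higher. There 1 member, Ddit3, had an unadjusted p under 0.05, against 8.09% of all genes. Differences of 0.2 or more in either direction were measured for Hspa1a, Dnajb1, Herpud1 and Ddit3, all lower with aldosterone, which is 4 of 45 members against 7.05% of all genes. The table had 6 such members, Hspa1a, Dnajb1, Dnaja1, Hspb8, Ddit3 and Chac1, against 21.6% of all genes.

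**Figure D1:**
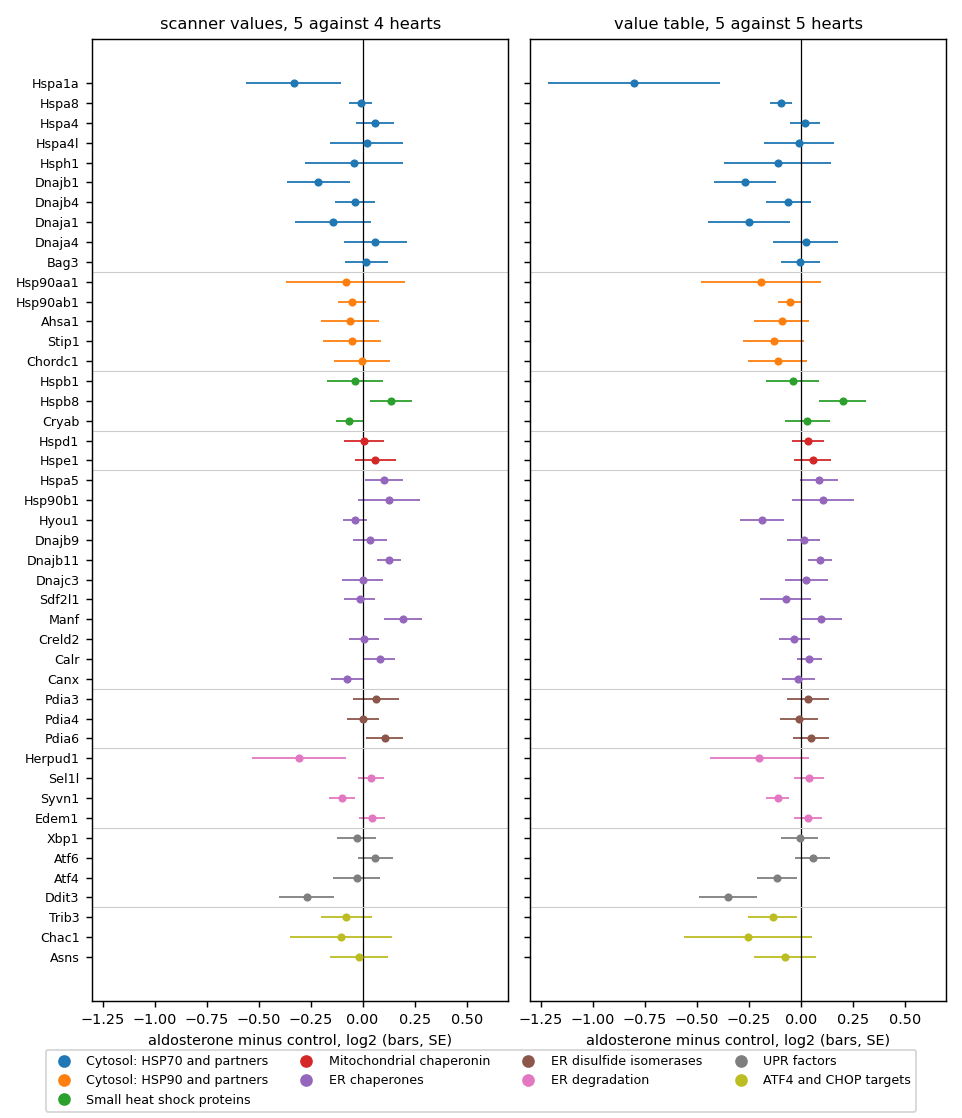
Difference between aldosterone and control hearts for each measured member, ordered by role, in log2 units with SE bars, from the scanner values (left, 5 against 4 hearts) and the deposited value table (right, 5 against 5). Hspa1a lies lowest in both panels, at -0.33 and -0.80, and none of the members passed the adjusted threshold.

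Larger differences were measured between hearts of the same group. On average the cytosolic members were high in controls 1 and 3 and in aldosterone heart 3. They were low in the other hearts of both groups. This held for the averages of the HSP70 and of the HSP90 members. The 3 small heat shock proteins, of which Hspb1 and Cryab had saturated probes, averaged -0.23 in control 3 and -0.08 in aldosterone heart 3. The average of the ER members moved little and was highest in other hearts. Of 18 measured cytosolic members, 11 had a within-group SD of 0.2 or more, against 14.8% of all genes. Of 18 ER members, 2 had such an SD (Hsp90b1 and Herpud1). Probes saturated on all 9 arrays were used for Hspb1 (SD 0.23), among the 11, and for Hspa8 (0.05) and Cryab (0.08), among the others. The median within-group SD was 0.24 for the cytosolic members, 0.11 for the ER members and 0.12 for all genes. Without control 3 the cytosolic count was 7 of 18, against 13.3% of all genes, and the ER count stayed at 2. In the value table the counts were 11 and 3 against 43.2% of all genes, and without control 3 they were 8 and 2 against 41.3%. With median centring in place of loess they were 13 and 7 against 29.5%, and with local backgrounds as deposited 12 and 6 against 27.4%.

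**Figure D2:**
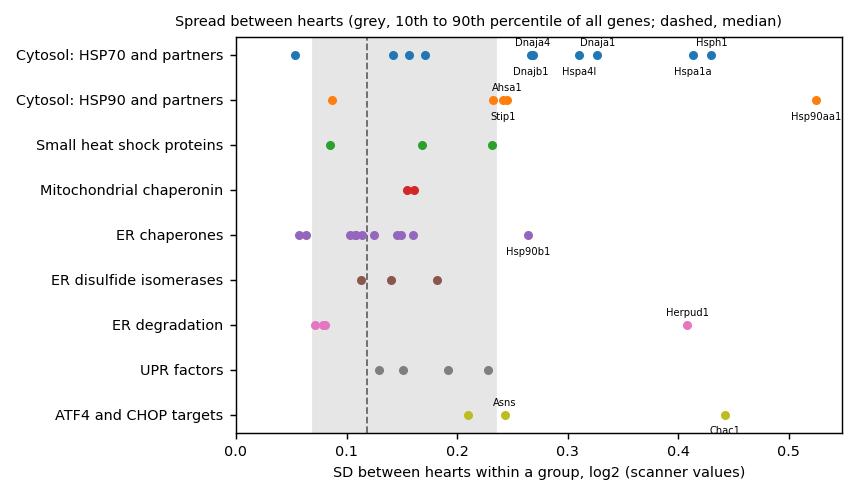
Within-group SD between hearts of each measured member by role, in log2 units (scanner values), with the 10th to 90th percentile of all genes shaded and their median dashed. Hsp90aa1, Chac1, Hsph1, Hspa1a and Herpud1 lie farthest to the right, at 0.52, 0.44, 0.43, 0.41 and 0.41.

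Control 3 was the highest heart for 11 of the 18 cytosolic members, against 11.6% of all genes. In the value table it was so for 12 of 18, against 14.0%. Over all genes control 3 was also the lowest heart more often than any other, for 21.0%, and in the value table for 15.8%. Controls 1 and 3 and aldosterone heart 3 lay above the mean of the 9 hearts for 14, 13 and 13 of the 18 cytosolic members, against 49.0%, 40.8% and 45.1% of all genes. The other 6 hearts did so for 5 to 9 of them. ER members had another order in these counts above the mean. Aldosterone heart 1 lay above the mean for 17 of 18 ER members, against 58.1% of all genes, aldosterone heart 2 and control 5 for 11 each, and aldosterone heart 5 for 4. The table's count for aldosterone heart 1 was 13 of 18, against 52.5% of all genes. Control 3 was the highest heart for 4 of 18 ER members (11.6% of all genes) and aldosterone heart 1 for 6 (16.5%). In the value table control 3 was the highest for 5 of 18 (14.0%), and aldosterone hearts 1 and 2 for 4 each (11.8% and 11.0%).

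**Figure D3:**
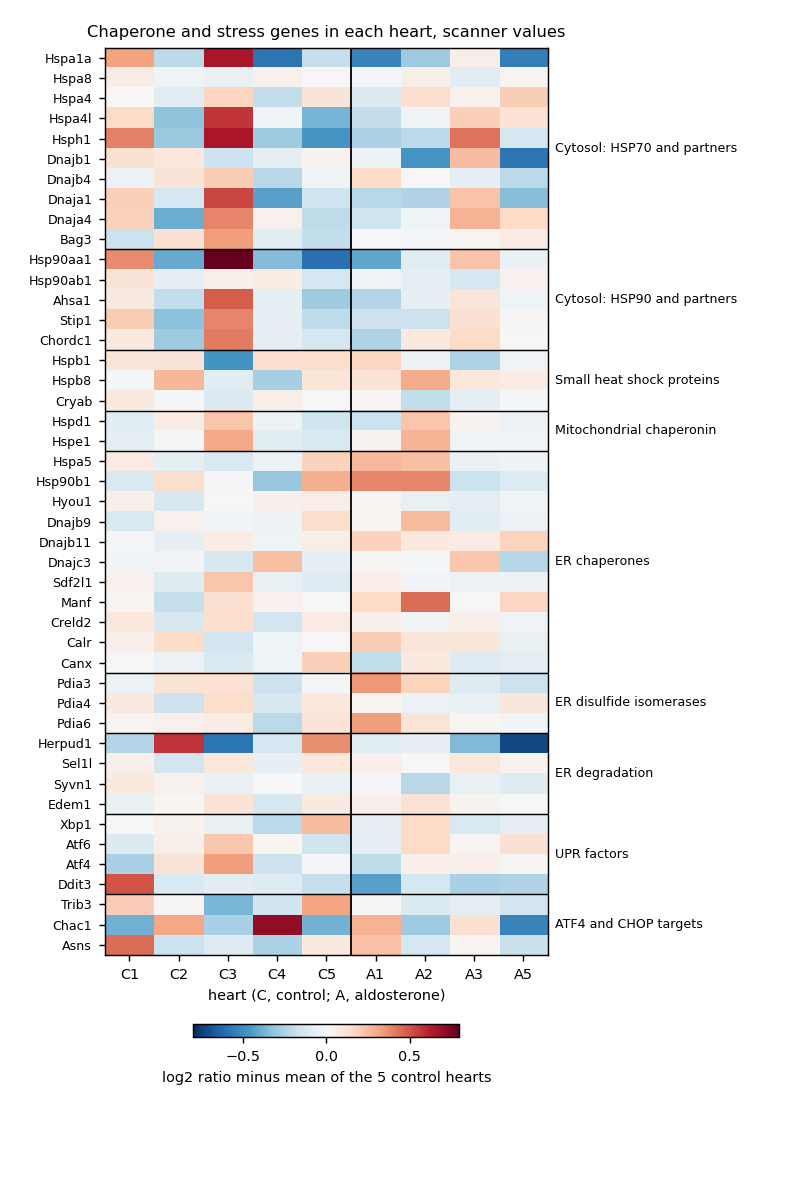
Each measured member (rows, by role) in each of 9 hearts (columns), as the log2 ratio minus the mean of the 5 control hearts, with red above and blue below it. Most HSP70 and HSP90 rows are red in C1, C3 and A3, while most ER rows are pale and Hspb1 is blue in C3.

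Averaged over the 18 cytosolic members, the deviation from the control mean was 0.12, -0.12, 0.27, -0.13 and -0.14 in controls 1 to 5 and -0.12, -0.08, 0.09 and -0.07 in aldosterone hearts 1, 2, 3 and 5. The average over the 18 ER members was -0.01, 0.00, -0.01, -0.07 and 0.08 in the controls and 0.10, 0.09, -0.03 and -0.07 in the aldosterone hearts. Both groups overlapped in both averages. The aldosterone mean was -0.05 ± 0.09 (SD, n = 4) for the cytosolic average, set against a control SD of 0.19 (n = 5) around 0, and 0.02 ± 0.08 (SD, n = 4) for the ER average, set against a control SD of 0.05 (n = 5). The difference between the averages, cytosolic minus ER, ranged over the controls from -0.23 in control 5 to 0.28 in control 3 and over the aldosterone hearts from -0.22 in heart 1 to 0.12 in heart 3.

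Aldosterone heart 4, known from the table, had the lowest cytosolic average of all 10 hearts, -0.24, and an ER average of -0.06. In that heart the HSP70 and HSP90 members averaged -0.39 and -0.30. The 3 small heat shock proteins averaged 0.34 there, their highest of the 10 hearts. Within the 4 slides, aldosterone minus control was -0.13, -0.35, 0.22 and 0.07 for the cytosolic average and 0.10, 0.09, 0.04 and -0.15 for the ER average, so neither kept its sign on every slide. Slides were told apart by the array barcode, and a scan batch was not read separately.

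**Figure D4:**
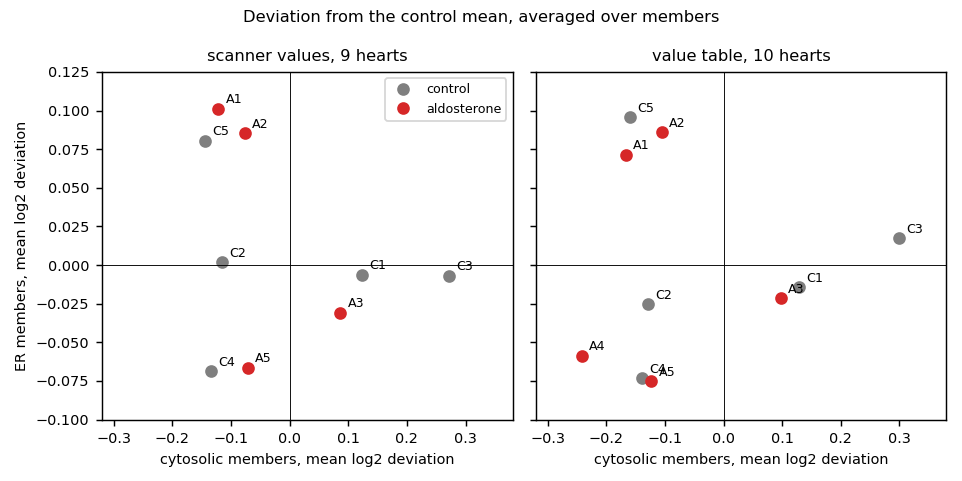
Average deviation from the control mean over the 18 cytosolic members (horizontal) against that over the 18 ER members (vertical) in log2 units, with 1 point per heart, for the scanner values (left) and the value table (right). C1, C3 and A3 lie to the right of 0, and C5, A1 and A2 lie at the upper left, so hearts of both groups lie on each side.

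Other gene groups also differed between hearts, and only in part in the same order. The cytosolic chaperonin TRiC (8 genes) averaged 0.08, -0.14, 0.17, -0.02 and -0.08 in controls 1 to 5. Its averages in aldosterone hearts 1, 2, 3 and 5 were 0.03, 0.02, 0.08 and 0.01. In the value table, 16 ER folding genes that are not members were highest in control 3 (0.13) and aldosterone heart 3 (0.11). Their scanner averages were 0.04 in control 3 and 0.10 in aldosterone hearts 1 and 3. The immediate early genes can rise quickly when tissue is handled. Their averages were 0.10, -0.05, 0.04, -0.09 and 0.01 in the controls and 0.27, 0.12, 0.12 and -0.06 in the aldosterone hearts. They were highest in aldosterone heart 1, where the cytosolic average was -0.12. In control 3, where the cytosolic average was 0.27, they were at 0.04. Of these 13 genes 0 passed and 10 were higher with aldosterone. The 8 cardiomyocyte markers averaged -0.09, 0.15, -0.23, 0.07 and 0.11 in the controls and 0.07, 0.18, -0.09 and -0.16 in the aldosterone hearts. Controls 1 and 3 and aldosterone heart 3, where the cytosolic members were high, were below 0 for these markers, as was aldosterone heart 5. The 8 fibroblast markers averaged -0.32, 0.39, 0.07, -0.14 and 0.00 in the controls and 0.64, 0.05, 0.44 and 0.47 in the aldosterone hearts, and 8 of 8 were higher with aldosterone with 0 passing. The part of handling and of cell types in the spread of the members was not tested.

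The cytosolic HSP70 genes had the largest median within-group SD of the 9 roles, 0.27. Hspa1a, the stress-inducible HSP70, had log2 ratios of 0.97, 0.43, 1.30, 0.06 and 0.45 in controls 1 to 5 and 0.11, 0.35, 0.70 and 0.09 in aldosterone hearts 1, 2, 3 and 5. The highest hearts were controls 3 and 1, and the groups overlapped. Its difference was -0.33 (SE 0.23, adjusted p = 0.968). The table gave log2 ratios of 2.21, 1.22, 2.61, 0.82 and 1.31 in controls 1 to 5 and 0.67, 1.22, 1.78, -0.06 and 0.54 in aldosterone hearts 1 to 5, and the difference was -0.80 (SE 0.41, adjusted p = 0.668). The value table holds 1 more heart and was made without the offset of 50 added to the signals here. Without aldosterone heart 4 the difference there was -0.58, and without control 3 the difference in the scanner values was -0.17.

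Hsph1, an HSP110 that exchanges nucleotide on HSP70, had log2 ratios of 0.57, -0.13, 0.82, -0.12 and -0.30 in controls 1 to 5 and -0.09, -0.04, 0.60 and 0.03 in aldosterone hearts 1, 2, 3 and 5. The 3 high hearts were controls 3 and 1 and aldosterone heart 3, and its difference was -0.04 (SE 0.24, adjusted p = 1). Dnajb1, the HSP40 that delivers clients to HSP70, had log2 ratios of 0.31, 0.27, 0.02, 0.11 and 0.21 in controls 1 to 5 and 0.14, -0.29, 0.43 and -0.40 in aldosterone hearts 1, 2, 3 and 5. Here aldosterone hearts 2 and 5 were the lowest and aldosterone heart 3 the highest, and its difference was -0.21 (SE 0.15, adjusted p = 0.968). That difference was -0.09 without aldosterone heart 5 and -0.37 without aldosterone heart 3.

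The other members of the group followed the same order in part. Control 3 was the highest heart for Hspa4l, Dnaja1, Dnaja4, Dnajb4 and Bag3, and aldosterone heart 5 for Hspa4. Hspa4 and Hspa4l are further HSP110 proteins, Dnaja1, Dnaja4 and Dnajb4 further HSP40 co-chaperones, and Bag3 couples HSP70 to small heat shock proteins and to autophagy. Their ranges over the 9 hearts were 0.94 for Hspa4l, 0.97 for Dnaja1, 0.79 for Dnaja4, 0.42 for Dnajb4, 0.53 for Bag3 and 0.39 for Hspa4. Their differences lay between -0.14 for Dnaja1 and 0.06 for Dnaja4, whose 2 probes differed in sign. The constitutive HSP70, Hspa8, spanned 0.15 on a probe that was saturated on all 9 arrays. An unsaturated probe of Hspa8 had 0.43, 0.44, 0.57, 0.08 and 0.51 in the controls and 0.00, 0.37, 0.47 and 0.02 in aldosterone hearts 1, 2, 3 and 5, with a difference of -0.19 (SE 0.12).

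Of the 5 HSP90 members, 4 were highest in control 3 as well, all but Hsp90ab1. Hsp90aa1, the stress-inducible cytosolic HSP90, had log2 ratios of -0.10, -0.88, 0.49, -0.83 and -1.08 in controls 1 to 5 and -0.90, -0.57, -0.25 and -0.54 in aldosterone hearts 1, 2, 3 and 5, the widest range of all members. Controls 3 and 1 and aldosterone heart 3 were again the 3 highest, and its difference was -0.08 (SE 0.29, adjusted p = 1). Hsp90ab1, the constitutive form, had log2 ratios of 0.47, 0.30, 0.41, 0.43 and 0.23 in controls 1 to 5 and 0.33, 0.30, 0.23 and 0.40 in aldosterone hearts 1, 2, 3 and 5, on a probe saturated on 3 arrays. These values overlapped, with a difference of -0.05 (SE 0.07, adjusted p = 0.999).

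Ahsa1, which activates the HSP90 ATPase, had log2 ratios of 1.12, 0.85, 1.53, 0.97 and 0.76 in controls 1 to 5 and 0.81, 0.98, 1.14 and 1.01 in aldosterone hearts 1, 2, 3 and 5. Control 3 stood highest, and its difference was -0.06 (SE 0.14, adjusted p = 1). Stip1, which bridges HSP70 and HSP90, and Chordc1, an HSP90 co-chaperone, were also highest in control 3, with ranges of 0.72 and 0.70 and differences of -0.05 and 0.00. All 5 HSP90 members had a difference below 0 with all hearts, where 52.3% of all genes were higher, and 0 of 5 had an unadjusted p under 0.05. Without control 3, only Hsp90ab1 was below 0 (-0.04), and the differences were 0.16 for Hsp90aa1, 0.06 for Ahsa1, 0.05 for Stip1 and 0.10 for Chordc1.

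Of the 3 small heat shock proteins, Hspb1 and Cryab were read on probes saturated on all 9 arrays, so the order of their hearts is not settled. Hspb1, HSP27, had log2 ratios of 1.14, 1.15, 0.57, 1.18 and 1.18 in controls 1 to 5 and 1.22, 1.00, 0.79 and 1.02 in aldosterone hearts 1, 2, 3 and 5. Control 3 was the lowest value and aldosterone heart 3 the next, within what a saturated probe can show. Its difference was -0.04 (SE 0.13, adjusted p = 1). Hspb8, a partner of Bag3, had log2 ratios of 1.88, 2.16, 1.80, 1.62 and 1.99 in controls 1 to 5 and 2.00, 2.19, 1.97 and 1.95 in aldosterone hearts 1, 2, 3 and 5, with a difference of 0.14 (SE 0.10, adjusted p = 0.975), and the groups overlapped. Cryab, the abundant alpha-B crystallin, spanned 0.27 on its saturated probe. A second, unsaturated probe of Cryab had 1.53, 1.24, 1.83, 1.56 and 1.32 in the controls and 1.40, 1.46, 1.81 and 1.62 in aldosterone hearts 1, 2, 3 and 5, so that control 3 and aldosterone heart 3 were its highest. The sign of the aldosterone difference was opposite on the 2 probes.

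The 2 genes of the mitochondrial chaperonin were close to each other. Hspe1, the HSP10 lid of the complex, had log2 ratios of 0.14, 0.20, 0.52, 0.13 and 0.09 in controls 1 to 5 and 0.24, 0.49, 0.19 and 0.18 in aldosterone hearts 1, 2, 3 and 5. Control 3 and aldosterone heart 2 stood above the rest, and its difference was 0.06 (SE 0.10, adjusted p = 0.999). Hspd1, the HSP60 that forms the folding chamber and shares the promoter shown above, was highest in the same 2 hearts (1.37 in each) with a difference of 0.01 (SE 0.10).

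In the ER, Hspa5, the HSP70 of the ER lumen known as BiP, had log2 ratios of 0.43, 0.28, 0.24, 0.31 and 0.54 in controls 1 to 5 and 0.62, 0.60, 0.31 and 0.32 in aldosterone hearts 1, 2, 3 and 5. Aldosterone hearts 1 and 2 and control 5 were the highest, aldosterone hearts 3 and 5 lay among the controls, and its difference was 0.10 (SE 0.09, adjusted p = 0.994). Hsp90b1, the ER HSP90 known as GRP94, had log2 ratios of -0.66, -0.40, -0.55, -0.84 and -0.25 in controls 1 to 5 and -0.15, -0.15, -0.71 and -0.64 in aldosterone hearts 1, 2, 3 and 5. The same 3 hearts were the highest, and its difference was 0.13 (SE 0.15, adjusted p = 0.999). In the value table these were again the 3 highest hearts for both genes, and aldosterone heart 4 lay below them, at 0.58 for Hspa5 and -0.41 for Hsp90b1.

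Dnajb11, a co-chaperone of BiP, had log2 ratios of -0.60, -0.66, -0.54, -0.63 and -0.55 in controls 1 to 5 and -0.41, -0.52, -0.53 and -0.42 in aldosterone hearts 1, 2, 3 and 5. Every aldosterone heart was above every control, with -0.53 in the lowest aldosterone heart and -0.54 in the highest control, which held for 1 of 45 members and for 1.46% of all genes, while 0 of 45 lay wholly below (0.636%). Its difference was 0.13 (SE 0.06, adjusted p = 0.799), with an unadjusted p of 0.0443. Its groups overlapped in the value table, where 0 of 45 members lay wholly above the controls (1.34% of all genes), with aldosterone heart 4 at -0.43, and the difference was 0.09 (SE 0.06, adjusted p = 0.75). A second probe of Dnajb11 was well above background on 2 arrays and was left out by the filter. On it controls 1 to 5 had -0.569, -0.616, -0.514, -0.600 and -0.533. Aldosterone hearts 1, 2, 3 and 5 had -0.739, -0.725, -0.632 and -0.619 there, so that every aldosterone heart was below every control. Manf, a secreted ER stress protein, had log2 ratios of -1.08, -1.29, -0.98, -1.07 and -1.10 in controls 1 to 5 and -0.94, -0.65, -1.10 and -0.93 in aldosterone hearts 1, 2, 3 and 5, with overlap at aldosterone heart 3 and a difference of 0.19 (SE 0.09, adjusted p = 0.838).

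The 7 other ER chaperones and co-chaperones had differences from -0.07 for Canx to 0.08 for Calr, the membrane-bound and soluble lectin chaperones calnexin and calreticulin. Between them lay Hyou1, an ER HSP110 (-0.04), Sdf2l1 (-0.01), Dnajc3, which also inhibits PERK (0.00), Creld2 (0.01) and Dnajb9 (0.03), of which the 2 probes of Dnajb9 differed in sign. Of the 11 genes in this group 8 were higher and 3 lower, with a median of 0.03 against 0.00 over all genes.

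Among the protein disulfide isomerases, Pdia6 had log2 ratios of -1.03, -1.02, -0.99, -1.26 and -0.95 in controls 1 to 5 and -0.72, -0.95, -1.03 and -1.07 in aldosterone hearts 1, 2, 3 and 5, with a difference of 0.11 (SE 0.09, adjusted p = 0.985). Aldosterone heart 1 was the highest and control 4 the lowest. Pdia3, ERp57, which works with calnexin and calreticulin, had log2 ratios of -1.05, -0.90, -0.89, -1.17 and -1.01 in controls 1 to 5 and -0.66, -0.82, -1.11 and -1.18 in aldosterone hearts 1, 2, 3 and 5, with aldosterone heart 1 highest again and a difference of 0.06 (SE 0.11, adjusted p = 1). Pdia4 had a difference of 0.00 (SE 0.08). On a second probe of Pdia6, control 5 was the highest (-0.36) and control 2 the lowest (-0.67). Aldosterone heart 1 was at -0.40 on that probe, and the difference was 0.03 (SE 0.07).

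In ER-associated degradation, Herpud1, a membrane protein of the retrotranslocation complex, had log2 ratios of 0.16, 0.97, -0.18, 0.26 and 0.76 in controls 1 to 5 and 0.31, 0.33, 0.04 and -0.33 in aldosterone hearts 1, 2, 3 and 5. Controls 2 and 5 were the highest and aldosterone heart 5 the lowest, the groups overlapped, and its difference was -0.31 (SE 0.22, adjusted p = 0.971). It was -0.16 without control 2 and -0.17 without aldosterone heart 5. Among all alternatives and members, Herpud1 gave the smallest adjusted p, 0.266. Syvn1, the ubiquitin ligase HRD1, had log2 ratios of -0.76, -0.80, -0.89, -0.84 and -0.89 in controls 1 to 5 and -0.85, -1.06, -0.89 and -0.93 in aldosterone hearts 1, 2, 3 and 5, with a difference of -0.10 (SE 0.06, adjusted p = 0.938). Its partner Sel1l and the mannosidase-like Edem1 each differed by 0.04 (SE 0.06).

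**Figure D5:**
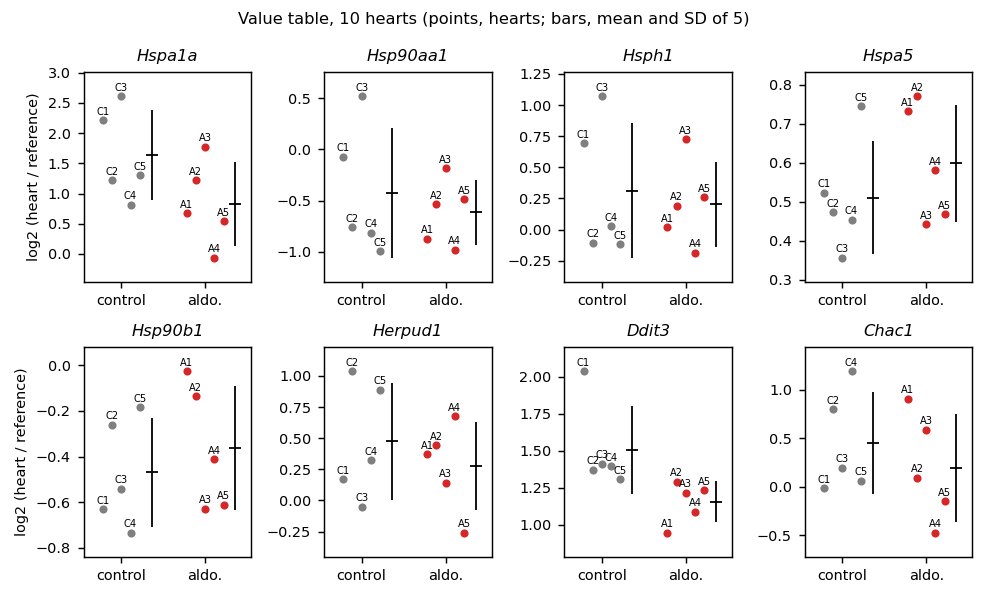
Log2 ratio to the reference of 8 members in each of 10 hearts of the value table, with points labelled by heart and the mean and SD of 5 hearts beside them. Hspa1a, Hsp90aa1 and Hsph1 are highest in C3, C1 and A3, and Ddit3 is the panel in which the groups do not overlap.

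Of the transcription factors, Ddit3 had log2 ratios of 1.41, 0.79, 0.82, 0.81 and 0.73 in controls 1 to 5 and 0.47, 0.77, 0.65 and 0.67 in aldosterone hearts 1, 2, 3 and 5. Control 1 stood above all other hearts, aldosterone heart 2 overlapped the controls, and its difference was -0.27 (SE 0.13, adjusted p = 0.844). Without control 1 the difference was -0.14. The table gave log2 ratios of 2.04, 1.37, 1.41, 1.39 and 1.31 in controls 1 to 5 and 0.95, 1.29, 1.22, 1.09 and 1.24 in aldosterone hearts 1 to 5. There all 5 aldosterone hearts lay below all 5 controls, which held for 1 of 45 members and 0.572% of all genes, and the difference was -0.35 (SE 0.14, adjusted p = 0.553).

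Atf4, which PERK signalling raises through translation, had log2 ratios of 0.76, 1.12, 1.35, 0.85 and 1.01 in controls 1 to 5 and 0.81, 1.06, 1.06 and 1.03 in aldosterone hearts 1, 2, 3 and 5, with a difference of -0.03 (SE 0.11, adjusted p = 1). The groups overlapped and control 3 was the highest. A second probe of Atf4 had 0.82, 0.85, 0.93, 0.77 and 0.59 in controls 1 to 5. Aldosterone hearts 1, 2, 3 and 5 had 0.60, 0.68, 0.63 and 0.60 on it, with a difference of -0.16 (SE 0.07). Control 5 was the lowest heart there, so the groups overlapped on both probes. Atf6 had log2 ratios of 0.98, 1.13, 1.31, 1.11 and 0.93 in controls 1 to 5 and 1.03, 1.25, 1.12 and 1.22 in aldosterone hearts 1, 2, 3 and 5, with a difference of 0.06 (SE 0.08, adjusted p = 0.999). Xbp1, whose spliced and unspliced forms were not separated here, spanned 0.46 with a difference of -0.03 (SE 0.09).

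The 3 targets of ATF4 and CHOP had differences below 0 that did not pass. Chac1, which degrades glutathione, had log2 ratios of -0.30, 0.39, -0.18, 0.79 and -0.30 in controls 1 to 5 and 0.36, -0.20, 0.20 and -0.46 in aldosterone hearts 1, 2, 3 and 5, with a difference of -0.10 (SE 0.24, adjusted p = 1). Control 4 was the highest and aldosterone heart 5 the lowest. Trib3, a pseudokinase, had log2 ratios of -1.10, -1.29, -1.67, -1.46 and -0.99 in controls 1 to 5 and -1.29, -1.41, -1.37 and -1.45 in aldosterone hearts 1, 2, 3 and 5, with a difference of -0.08 (SE 0.12, adjusted p = 0.999). Asns, asparagine synthetase, differed by -0.02 (SE 0.14).

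Further genes of the same pathways were listed by name, 86 in all, of which 84 were measured. In limma, 0 of 84 passed, 5 had an unadjusted p under 0.05, 55 were higher and 29 lower, with a median of 0.03. Over all genes 6.19% had such a p and 52.3% were higher. Of the same 84 genes, 49 were higher and 35 lower in the value table, against 49.9% of all genes higher. Regulators of the heat shock response and HSP90 co-chaperones were 6 higher and 4 lower of 10, but 3 higher and 7 lower in the table. Bag1, a nucleotide exchange factor of HSP70, had a difference of -0.08 (SE 0.07, adjusted p = 0.982), and Hsf2, a heat shock factor, a difference of -0.06 (SE 0.06, adjusted p = 0.999). The cytosolic chaperonin TRiC was 6 higher and 2 lower of 8, against 4 and 4 in the table. Other heat shock proteins were 10 higher and 4 lower of 14 in both sources. Trap1, the mitochondrial HSP90, had a difference of -0.19 (SE 0.07, adjusted p = 0.735) and Hspb3, a small heat shock protein of muscle, a difference of 0.27 (SE 0.11, adjusted p = 0.762). The sensors and regulators of ER stress were 6 higher and 3 lower of 9, and 4 higher and 5 lower in the table, with a difference of 0.11 (SE 0.05, adjusted p = 0.865) for Eif2ak3, which encodes PERK.

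Other ER folding factors were 12 higher and 4 lower of 16, with a median of 0.08, and other degradation and translocation genes 12 higher and 4 lower of 16, with a median of 0.05. The table gave 12 and 4 for the first and 11 and 5 for the second. Pdia5, a further disulfide isomerase, had a difference of 0.20 (SE 0.07, adjusted p = 0.626), and Ppib, the ER cyclophilin, a difference of 0.16 (SE 0.06, adjusted p = 0.722). Ssr3, a subunit of the translocon-associated complex, had a difference of 0.12 (SE 0.06, adjusted p = 0.814). The fibroblast markers, of which 8 of 8 were higher with a median of 0.45, were on the same side as most of these secretory genes. So were 6 of 7 macrophage markers (median 0.19) and 4 of 5 red blood cell markers (median 0.23). Endothelial markers were higher for 4 of 8, and smooth muscle and pericyte markers for 4 of 8. Cardiomyocyte markers were higher for 2 of 8, lymphocyte markers for 1 of 8 and adipocyte markers for 1 of 8. The part of these cells was not tested. Other ATF4 targets were 3 higher and 8 lower of 11, and 5 higher and 6 lower in the table, with a difference of 0.25 (SE 0.08, adjusted p = 0.529) for Psat1, a gene of serine synthesis, and a difference of -0.19 (SE 0.11, adjusted p = 0.924) for Phgdh of the same pathway.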

How the data were processed

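The deposited scanner files give a spot intensity for each dye on 9 arrays, per the file headers. The submitters' processing notes name Agilent Feature Extraction 10.7.3.1. The deposited files also give a ratio of the dyes on a log10 scale, turned into log2 for 1 alternative. A value table deposited by the authors gives log2 ratios of all 10 hearts. Set against the scanner's own ratio, it had a Pearson r of 0.996 to 1.00 on each array with a slope of 1.00, so its scale and direction are known. No centring was seen: the medians of controls 1, 2, 3, 4 and 5 were 0.06, 0.06, 0.12, 0.02 and 0.02, and those of aldosterone hearts 1, 2, 3, 4 and 5 were 0.04, 0.08, 0.11, -0.01 and 0.04.

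Median signals, used because the files hold no mean signals, were background-corrected with normexp (offset 50) after each local background over 20 units away from the median of its array had been set to that median. Ratios were loess-normalized within arrays (R 4.3.3, limma 3.58.1). Control spots and 1667 spots marked as outliers were left out, and 43020 spots were averaged to 39429 probes. Probes well above background in Cy5 on at least 4 arrays were kept (26877), and the probe of highest mean signal stood for a gene. Accessions matched to RefSeq GRCm38.p6 named 26581 probes. The 12848 other probes kept their accession. Of 10 members with several kept probes, 3 (Cryab, Dnaja4 and Dnajb9) had probes of opposite sign.

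The test was a two-sided limma model of 5 control against 4 aldosterone arrays, with Benjamini-Hochberg adjustment over 22016 genes and a threshold of 0.05. On data simulated for this comparison over 21978 genes, it found 73.1% of the genes set to a log2 change of 0.5 and 98.5% of those set to 1. The simulation drew independent noise and no sets of hearts. The changed genes were drawn at random from all genes, whose median within-group SD was 0.12. These rates do not carry over to members of larger spread, such as the cytosolic members with a median of 0.24. The precision is limited by the number of arrays. Members, roles and lists were chosen with earlier results of these data known, so no p is given for a list. Values in every heart are given for the members of smallest p in each role (2, or 1 in roles of under 4 genes), the member of largest spread and Hspa1a, Hspa5, Ddit3 and Atf4. Pathway genes named are among the 2 of smallest p in their list. Alternatives, given in the closing section, were other background corrections, normalizations, filters and probe choices, the value table, slide and replicate blocks, leaving out each heart, and 4 chosen after seeing the data: unsaturated probes, the first principal component as a covariate, the value table without aldosterone heart 4, and the spread without each heart.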

Additional observations from a re-analysis of the deposited data

Results flagged for a closer look

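Within a group, 7 of 94 sets of hearts held 1 value whose gap to its neighbour took up most of the group's range (Dixon's test at 95%). Chance alone marks about 1 in 20 sets, and scanner values of the members and their averages were examined. Control 3 was such a heart for Hspb1, at 0.57 where the other controls were at 1.14 to 1.18, on a saturated probe, and for Hspe1, at 0.52 where the others were at 0.09 to 0.20. Hsph1 in aldosterone heart 3 was at 0.60, with the others from -0.09 to 0.03. Ddit3 in control 1 was at 1.41, with the others from 0.73 to 0.82. Pdia6 in control 4 was at -1.26, with the others from -1.03 to -0.95. Xbp1 in aldosterone heart 2 was at -1.08, with the others from -1.36 to -1.31. Atf4 in aldosterone heart 1 was at 0.81, with the others from 1.03 to 1.06. These values are of the probe that stood for each gene. On a second probe this Atf4 value was 0.60 (others 0.60 to 0.68) and that of Pdia6 in control 4 was -0.54 (others -0.67 to -0.36). Hsph1 in aldosterone heart 3 was 0.55 on its second probe (others -0.18 to 0.21). Hspe1 in control 3 was 0.54 and 0.28 on its other probes, with the other controls up to 0.32 and 0.27.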

How the results depend on the processing

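No member passed under any of 26 alternatives for the comparison (23 planned, 3 added after seeing the data), and the smallest adjusted p was 0.266. Of the 45 members 17 kept the sign of their difference under all 26, and 28 changed it under at least 1. The difference of Hspa1a was -0.80 in the value table. Over all genes, where 0 of 22016 passed in the main test, 11 passed with the Agilent log ratio as deposited, 37 in the value table of 10 hearts, 13 in the table without aldosterone heart 4, 10 with the first principal component as a covariate, and 0 to 11 when each heart was left out. The cause of these differences was not tested. With the replicate block 2 genes passed. The numbers were not taken to pair the hearts, since the deviations of same-numbered hearts correlated at 0.06, 0.34, 0.35 and -0.34.

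When each heart was left out, 0 members passed each time, the cytosolic average difference ran from -0.09 to 0.02, the ER average from -0.004 to 0.05 and their difference from -0.13 to 0.002. The highest of the first and last of these came without control 3. The count of ER members with a within-group SD of 0.2 or more was 7 with median centring and 6 with local backgrounds as deposited, in place of 2. The cytosolic counts were then 13 and 12, in place of 11, and 29.5% and 27.4% of all genes reached that SD, in place of 14.8%. Leaving out each heart gave 2 each time for the ER and 7 to 11 for the cytosolic members, with 7 without control 3. Probes of Hspa8, Hspb1 and Cryab were saturated on all 9 arrays, which limits what their ratios can show.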
